A study of Aspergillus niger with 16 samples.

Results

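The genes *gaaA* (NRRL3_05650), *gaaB* (NRRL3_06890) and *gaaC* (NRRL3_05649) of the filamentous fungus Aspergillus niger encode the enzymes of the first steps of D-galacturonic acid (GA) catabolism. They were picked by locus tag as 3 of the 11580 genes listed in any library. All 3 were listed in all 16 libraries and passed the filter on low counts. A reference strain (CBS 141257) and a strain without *gaaR* (ΔgaaR, CBS 141258) were compared by sequencing of total RNA from mycelium. Both strains were pre-grown for 16 h on 2% D-fructose and then moved to minimal medium of pH 6 containing 1% sugar beet pectin (SBP), sampled after 2, 8 and 24 h, or 25 mM GA, sampled after 2 h. All 8 groups had 2 libraries. The labels give no further allele of either strain. They also leave unsaid whether replicates were grown apart, so the spread behind the p-values is that between these libraries and may be technical. No library from fructose or another carbon source was analysed here, so levels are compared between these media, times and strains only.

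GA is the main sugar acid of the pectin backbone, and the fungus uses it as a carbon source after extracellular enzymes have released it. The reductase GaaA turns GA into L-galactonate, the dehydratase GaaB turns L-galactonate into a keto-deoxy acid, and the aldolase GaaC splits that acid into pyruvate and L-glyceraldehyde, which the reductase GaaD converts to glycerol. The zinc-cluster activator GaaR turns on the pathway, the repressor GaaX counteracts it, GatA imports GA, and the keto-deoxy acid between GaaB and GaaC is known as the inducer. The tags of *gaaA* and *gaaC* are consecutive. In the RefSeq gene table of another A. niger strain (assembly ASM285v2), the entries recalled for them also neighbour each other, with 0 protein-coding genes between them on their contig, on chromosome IV, while that of *gaaB* lies on chromosome V. The gene models measured 1239 bases for *gaaA*, 1359 for *gaaB* and 1008 for *gaaC*, as coding length.

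Library totals lay between 3203011 and 4574019 expected reads. The deleted gene *gaaR* stood at 24.1 to 28.3 FPKM (reads scaled to the length of the gene model and to the library total) in the reference strain on GA. Its SBP libraries had 215 to 234 FPKM at 2 h, 58.2 to 62.9 at 8 h and 82.6 to 94.9 at 24 h. In the ΔgaaR libraries it stood at 0 to 3.92 FPKM, below both reference libraries of the condition in each case. The labelled mycelium was not checked against marker genes, because no source used here pairs the tags with such genes. In RNA from whole mycelium, fewer hyphae with a transcript and less transcript per hypha cannot be told apart.

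In the reference strain, the 3 genes were among the most abundant transcripts on GA and during the first 8 h on pectin. *gaaB*, the dehydratase gene, had the highest level of the 3 before 24 h. It reached 10858 and 11760 FPKM on GA, 12287 and 11159 after 2 h of SBP, 9480 and 9790 after 8 h, and 163 and 254 at 24 h (replicates 1 and 2). By FPKM it ranked between 1 and 4 among all genes in the 6 libraries before 24 h, and between 678 and 1056 at 24 h. *gaaC*, the aldolase gene, stood at 5754 and 5562 FPKM on GA, 7338 and 7275 after 2 h of SBP, 5736 and 6346 after 8 h, and 357 and 698 at 24 h. Its ranks were 5 to 16 before 24 h and 238 to 495 at 24 h. *gaaA*, the reductase gene, had the lowest level of the 3 before 24 h, with 2606 and 2594 FPKM on GA, 4862 and 4437 after 2 h of SBP, 2673 and 2899 after 8 h, and 150 and 280 at 24 h. Its ranks were 15 to 73 before 24 h and 607 to 1136 at 24 h.

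Together the 3 genes took 2.21% to 3.02% of all reads in the 6 reference libraries before 24 h. The lowest of these shares had a 95% Wilson interval of 2.20% to 2.23%; this and the intervals in brackets cover counting error only. At 24 h the summed shares were 0.0771% (0.0746% to 0.0797%) and 0.140% (0.137% to 0.143%). In the ΔgaaR strain they ranged from 0.0153% (0.0142% to 0.0166%) at 24 h to 0.0972% (0.0939% to 0.101%) on GA. Each ΔgaaR share lay below both reference shares of its condition.

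**Figure D1:**
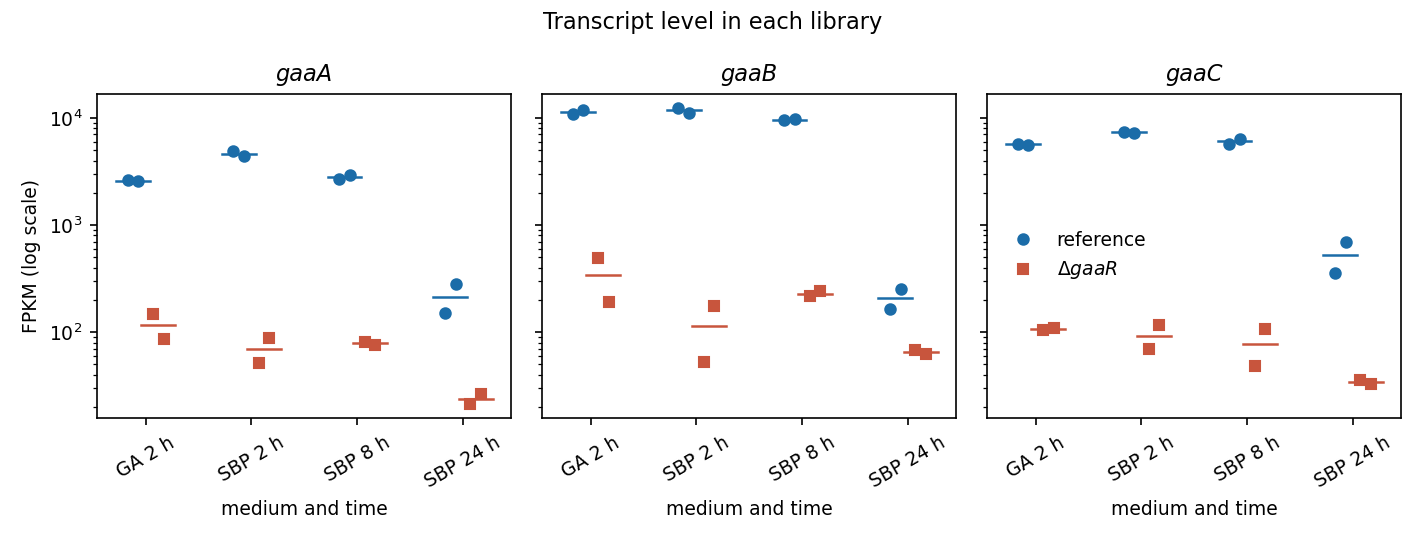
Level of gaaA, gaaB and gaaC in each library, in FPKM on a log axis, by medium and time. Points are single libraries (circles reference, squares ΔgaaR), lines are means of 2. In every condition both reference libraries lie above both ΔgaaR libraries, and in the reference strain all 3 genes stand lowest at 24 h.

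In the libraries of the ΔgaaR strain a low level of each transcript was counted. *gaaB* stood at 496 and 193 FPKM on GA, 52.3 and 175 after 2 h of SBP, 216 and 244 after 8 h, and 68.5 and 62.8 at 24 h. *gaaA* stood at 149 and 85.7 FPKM on GA, 51.3 and 89.1 after 2 h of SBP, 81.7 and 76.2 after 8 h, and 21.5 and 26.6 at 24 h. *gaaC* stood at 104 and 108 FPKM on GA, 69.6 and 116 after 2 h of SBP, 48.9 and 107 after 8 h, and 35.6 and 33.1 at 24 h. The fewest reads behind any of these values were 113, for *gaaA* at 24 h. The replicates lay furthest apart for *gaaB* at 2 h, by 2.57 times on GA and 3.35 times on SBP. Replicate 1 was the higher one on GA and replicate 2 on SBP. The libraries of 24 h were the lowest for *gaaA* and *gaaC*. Of the other conditions, those of *gaaC* all overlapped, while for *gaaA* the SBP libraries of 2 h overlapped with those of 8 h and of GA, and the GA libraries lay above those of 8 h. For *gaaB*, the libraries of 24 h lay within the range of SBP at 2 h, and those of GA and of SBP at 8 h overlapped above it.

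Reads were also counted for the deleted *gaaR* in 5 of the 8 ΔgaaR libraries. There were 30 and 1 on GA (replicates 1 and 2), 0 and 12 after 2 h of SBP, 24 and 24 after 8 h, and 0 and 0 at 24 h. At both 2 h conditions, the library with more *gaaR* reads was also the higher one for *gaaA* and *gaaB*, and for *gaaC* on SBP, while *gaaC* on GA differed by 1.04 times. After 8 h, with 24 *gaaR* reads in both libraries, *gaaC* differed by 2.20 times, *gaaB* by 1.13 and *gaaA* by 1.07. The pathway gene *gaaD* was higher with more *gaaR* reads on GA (641 against 373 FPKM) and lower on SBP at 2 h (3289 against 4325). The mean of *gaaR* in ΔgaaR was 7.66% of the reference mean on GA, 0.319% after 2 h of SBP and 4.71% after 8 h. The part of these reads in the levels of *gaaA*, *gaaB* and *gaaC* counted in ΔgaaR, and in their fall to 24 h, was not tested.

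How far each transcript depended on *gaaR* was asked in each condition, with edgeR's quasi-likelihood test over 10003 genes and Benjamini-Hochberg adjustment. All 3 genes were lower in the ΔgaaR strain in all 4 conditions, and reference and ΔgaaR libraries overlapped in none of these 12 cases. How many of all genes showed no such overlap was not counted, so the lack of overlap is given as description only. Among all genes tested, the share called lower was 23.5% for GA, 7.21% for SBP at 2 h, 21.4% for 8 h and 15.8% for 24 h. The names of these genes come largely from work on this regulator, so their shared direction is not independent evidence. Lower calls made up 55.7% of the calls at 24 h, but 42.5% with libraries scaled by total count.

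In edgeR each gene had its lowest fold change on SBP at 2 h, where the reference mean of *gaaB* was 103 times the ΔgaaR mean. The log2 fold change of *gaaB* was -6.76 (SE 0.52, 95% interval -7.86 to -5.67, adjusted p = 5e-07), and it was rank 9 from the lowest of the 10003 genes. *gaaC* changed by -6.33 (SE 0.43, adjusted p = 1.4e-07, rank 13) and *gaaA* by -6.09 (SE 0.36, adjusted p = 5.7e-08, rank 17). For *gaaC* the value at 8 h was close, at -6.27. With limma on log2(FPKM + 1) the *gaaC* order was reversed, with -6.33 at 2 h and -6.36 at 8 h. The ΔgaaR mean was 0.971% of the reference mean for *gaaB*, 1.27% for *gaaC* and 1.51% for *gaaA*. Without ΔgaaR replicate 2, whose *gaaB* level was the higher one, *gaaB* changed by -7.67.

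On GA, with the free monomer in the medium, *gaaC* led with a mean 53.3 times higher in the reference strain. Its log2 fold change was -5.83 (SE 0.42, 95% interval -6.72 to -4.93, adjusted p = 2.3e-08). *gaaB* changed by -5.20 (SE 0.48, adjusted p = 2.7e-07) and *gaaA* by -4.60 (SE 0.34, adjusted p = 2.6e-08). They were ranks 49, 79 and 116 from the lowest. The 95% intervals of the 3 genes overlapped on GA. Their order within a single condition was not tested, on GA or on SBP. The ΔgaaR strain kept 4.52% of the reference mean for *gaaA*, 3.04% for *gaaB* and 1.88% for *gaaC*. Without ΔgaaR replicate 1, *gaaB* changed by -5.83.

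After 8 h on SBP the order of the fold changes was the same as on GA. *gaaC* changed by -6.27 (SE 0.43, 95% interval -7.19 to -5.35, adjusted p = 2.3e-08), *gaaB* by -5.39 (SE 0.48, adjusted p = 3.3e-07) and *gaaA* by -5.14 (SE 0.35, adjusted p = 2e-08). The reference means were 77.3, 42.0 and 35.3 times the ΔgaaR means, respectively. Without ΔgaaR replicate 2, *gaaC* changed by -6.93.

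At 24 h the differences between the strains were smaller, and *gaaB* had the smallest of the 3. The reference mean was 3.18 times the ΔgaaR mean for *gaaB*, 8.94 times for *gaaA* and 15.3 times for *gaaC*. *gaaB* changed by -1.86 (SE 0.42, 95% interval -2.76 to -0.97, adjusted p = 0.0031), *gaaA* by -3.35 (SE 0.33, adjusted p = 1.1e-06) and *gaaC* by -4.13 (SE 0.40, adjusted p = 9.5e-07). The ΔgaaR strain held 31.5% of the reference mean of *gaaB*, against 11.2% for *gaaA* and 6.52% for *gaaC*. In the reference strain at 24 h, replicate 2 was the higher library for all 3 genes, by 1.86 times for *gaaA*, 1.56 times for *gaaB* and 1.96 times for *gaaC*.

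**Figure D2:**
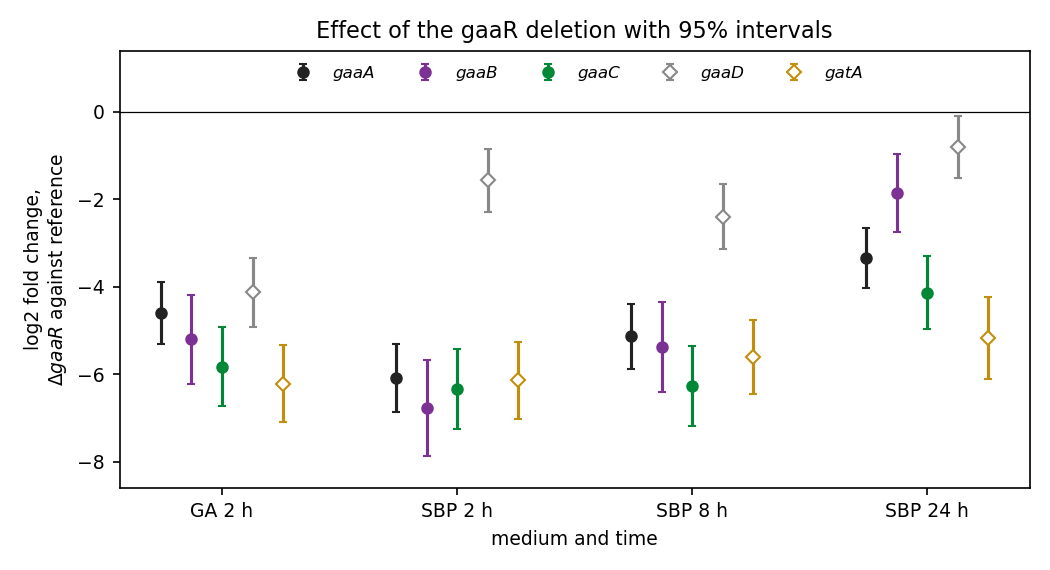
Log2 fold change of ΔgaaR against reference in each condition, with 95% intervals from edgeR (2 libraries per group). Filled circles are gaaA, gaaB and gaaC, open diamonds gaaD and gatA. At 24 h gaaB is at -1.86, while gaaA and gaaC are at -3.35 and -4.13.

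Whether the effect of the deletion differed between conditions was tested with interaction contrasts in the same fit. From 8 h to 24 h on SBP the effect shrank for all 3 genes, by 3.52 on the log2 scale for *gaaB* (SE 0.59, adjusted p = 0.00025), by 2.14 for *gaaC* (SE 0.50, adjusted p = 0.0036) and by 1.79 for *gaaA* (SE 0.42, adjusted p = 0.0039). Of all genes, 15.4% were called with a positive difference, as here, whichever way the deletion moved them. These were 45.6% of the calls (55.3% with total count scaling). Without ΔgaaR replicate 2 at 8 h the value for *gaaC* was 2.83. Between GA and SBP at 2 h, the effect was larger on SBP for *gaaA*, by -1.49 (SE 0.42, adjusted p = 0.01), and for *gaaB*, by -1.56 (SE 0.57, adjusted p = 0.042). A negative difference was called for 19.4% of all genes, whichever way the deletion moved them. The *gaaB* call was lost without 6 of the 8 libraries involved, and its value ranged from -2.47 without ΔgaaR replicate 2 on SBP to -0.93 without ΔgaaR replicate 1 on GA (adjusted p = 0.0015 and 0.21). It was also lost when only those 8 libraries were fitted (adjusted p = 0.1) and with limma on log2(FPKM + 1) (adjusted p = 0.053). For *gaaC* the difference was -0.51 (95% interval -1.55 to 0.53, adjusted p = 0.45). Between 2 and 8 h on SBP, where 13.4% of all genes were called higher, none of the 3 passed in edgeR, with 0.95 for *gaaA* (adjusted p = 0.1), 1.38 for *gaaB* (0.085) and 0.06 for *gaaC* (0.95). DESeq2 called *gaaA* and *gaaB* there (adjusted p = 0.042 and 0.03), as did edgeR *gaaB* without ΔgaaR replicate 2 at 2 h (2.28, adjusted p = 0.0037).

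Within the reference strain, the largest step of each gene was the decrease from 8 to 24 h on SBP. *gaaB* fell from a mean of 9635 ± 219 to 209 ± 64.4 FPKM (SD, n = 2 each), a log2 fold change of -5.60 (SE 0.49, 95% interval -6.64 to -4.56, adjusted p = 1.9e-07). *gaaA* fell from 2786 ± 160 to 215 ± 91.6 FPKM, by -3.77 (SE 0.32, adjusted p = 1.6e-07), and *gaaC* from 6041 ± 431 to 527 ± 242 FPKM, by -3.59 (SE 0.38, adjusted p = 1.5e-06). Of all genes, 21.4% were called lower in this step. The transcript of the activator was not called over the same time. *gaaR* had a log2 fold change of 0.48 (SE 0.48, adjusted p = 0.44), while the repressor gene *gaaX* changed by -1.96 (SE 0.22, adjusted p = 2.4e-06).

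The earlier steps in the reference strain were small. From GA to SBP at 2 h, *gaaA* was higher by 0.79 (SE 0.29, adjusted p = 0.032), where 27.3% of all genes were called higher. *gaaC* (0.32, 95% interval -0.41 to 1.04, adjusted p = 0.46) and *gaaB* (0.00, 95% interval -0.85 to 0.85, adjusted p = 1) missed the threshold, and their intervals bound the change. *gaaR* was 3.04 higher on the log2 scale on SBP in the same comparison (SE 0.52, adjusted p = 0.00018). From 2 to 8 h on SBP, *gaaA* fell by 0.87 (log2 fold change -0.87, SE 0.29, adjusted p = 0.026), where 19.5% of all genes were called lower. *gaaB* (-0.41, 95% interval -1.26 to 0.44) and *gaaC* (-0.40, 95% interval -1.13 to 0.32) did not pass (adjusted p = 0.44 and 0.37), although *gaaC* did when only these libraries were fitted (adjusted p = 0.046). Both *gaaA* calls were lost without any 1 of their 4 libraries, at adjusted p from 0.072 to 0.13 and from 0.067 to 0.15. The second was also lost with total count scaling (0.069) and limma (0.078). In order of level, *gaaA* was thus highest on SBP at 2 h, then at 8 h, then on GA, with the last pair close (2673 and 2899 against 2606 and 2594 FPKM) and not tested. For *gaaB* the libraries from GA and from SBP at 2 h overlapped, as did those of *gaaC* from GA and from SBP at 8 h. For all 3 genes, the libraries of 24 h lay below all others of the reference strain.

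Without *gaaR*, the 3 genes also fell from 8 to 24 h on SBP, by less. *gaaB* changed by -2.08 (SE 0.42, adjusted p = 0.0015), *gaaA* by -1.98 (SE 0.31, adjusted p = 0.00017) and *gaaC* by -1.46 (SE 0.36, adjusted p = 0.0067), and 15.0% of all genes were called lower. With total count scaling, lower calls made up 30.1% of all calls in this step in place of 51.8%; the 3 genes were called lower there as well, with values of -1.80, -1.71 and -1.18. The *gaaC* call was lost without replicate 2 at 8 h (-0.78, adjusted p = 0.17) and without replicate 2 at 24 h (-1.44, adjusted p = 0.055). From GA to SBP at 2 h, *gaaB* fell by 1.56 (log2 fold change -1.56, SE 0.41, adjusted p = 0.0091), against 14.9% of all genes called lower. This call was lost without replicate 1 on GA (-0.93, adjusted p = 0.12), without replicate 1 on SBP (-1.01, adjusted p = 0.07) and with only these libraries fitted (adjusted p = 0.094), and the value was -2.47 without replicate 2 on SBP. *gaaA* (-0.70, 95% interval -1.33 to -0.07, adjusted p = 0.089) and *gaaC* (-0.19, 95% interval -0.93 to 0.56, adjusted p = 0.73) did not pass. From 2 to 8 h, with 30.3% of all genes called in either direction, none passed in edgeR, with 0.97 for *gaaB* (adjusted p = 0.087), 0.08 for *gaaA* (0.86) and -0.34 for *gaaC* (0.5). DESeq2 called *gaaB* in this step (adjusted p = 0.03) and *gaaA* in the step before (adjusted p = 0.043), and *gaaB* reached 1.87 without replicate 2 at 2 h (adjusted p = 0.0034).

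**Figure D3:**
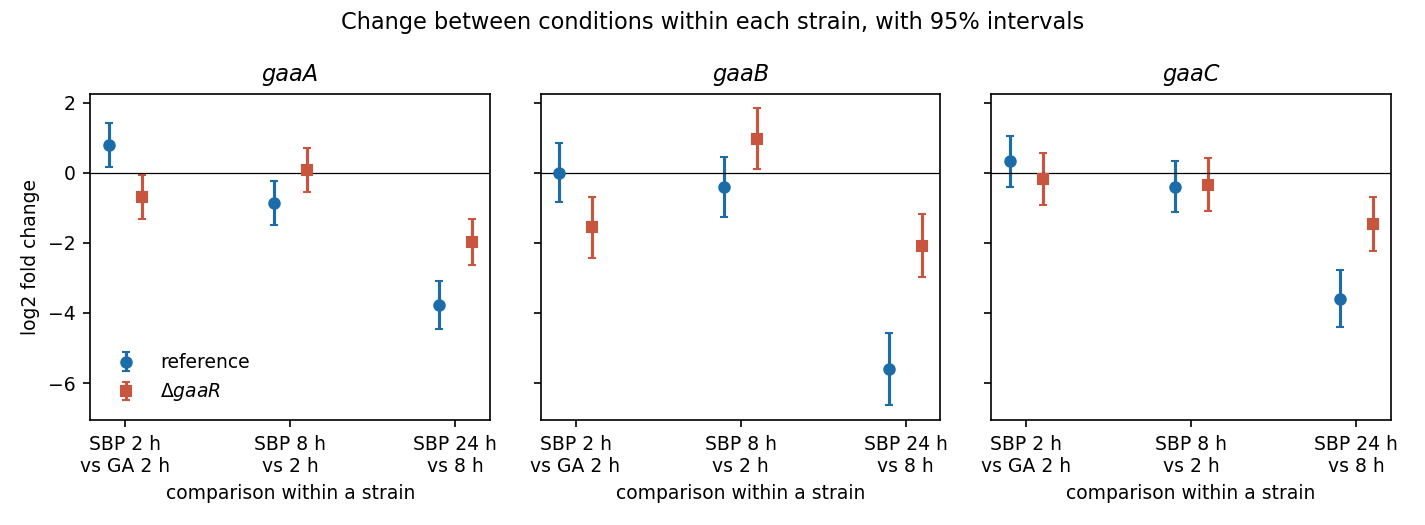
Log2 fold change between conditions within each strain, with 95% intervals from edgeR, for gaaA, gaaB and gaaC (circles reference, squares ΔgaaR). The step from 8 to 24 h on SBP is below 0 in both strains, and for gaaB it is -5.60 in the reference strain and -2.08 in ΔgaaR.

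How the members stood to each other was followed by their ratio within a library, on the FPKM scale, where library scaling cancels. The ratio of the neighbours *gaaC* and *gaaA* was nearly the same in replicate libraries of the reference strain. On GA it was 2.21 and 2.14, after 2 h of SBP 1.51 and 1.64, then 2.15 and 2.19 at 8 h, and 2.37 and 2.50 at 24 h. In the ΔgaaR strain it was 0.697 and 1.26 on GA, 1.36 and 1.30 after 2 h of SBP, 0.598 and 1.41 after 8 h, and 1.65 and 1.25 at 24 h. In each condition both ΔgaaR ratios lay below both reference ratios. The ratio was thus lower without *gaaR*, by 0.87 on the log2 scale on average over the 4 conditions (deletion minus reference -0.87). An exact two-sided permutation test of strain labels within conditions gave p = 0.0015, the smallest this design allows, and 0.0046 after adjustment over 3 pairs of genes.

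The ratio of *gaaB* to *gaaA* was 4.17 and 4.53 on GA, 2.53 and 2.52 after 2 h of SBP, and 3.55 and 3.38 after 8 h in the reference strain, but 1.09 and 0.908 at 24 h. In the ΔgaaR strain it was 3.18 and 2.36 at 24 h and between 1.02 and 3.32 in the other conditions. The ΔgaaR ratios thus lay above those of the reference strain at 24 h and below them in the other 3 conditions. Averaged over conditions, the difference was -0.09 on the log2 scale (exact permutation test, p = 0.77, adjusted p = 0.77). *gaaC* to *gaaB* was below 1 in all reference libraries before 24 h, at 0.473 to 0.652, and at 2.19 and 2.75 at 24 h, so that the gene with the highest level of the 3 was *gaaB* in the first 3 conditions and *gaaC* at 24 h. In the ΔgaaR libraries of 24 h the ratio was 0.520 and 0.528. Its average difference between strains was -0.78 (exact permutation test, p = 0.063, adjusted p = 0.095). Its mean was lower without *gaaR* in 3 conditions and higher on SBP at 2 h. On GA the ΔgaaR ratios, 0.210 and 0.563, overlapped with those of the reference strain, 0.530 and 0.473. Without ΔgaaR replicate 1 on SBP at 2 h, the average difference between strains for *gaaC* to *gaaB* was -0.90.

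**Figure D4:**
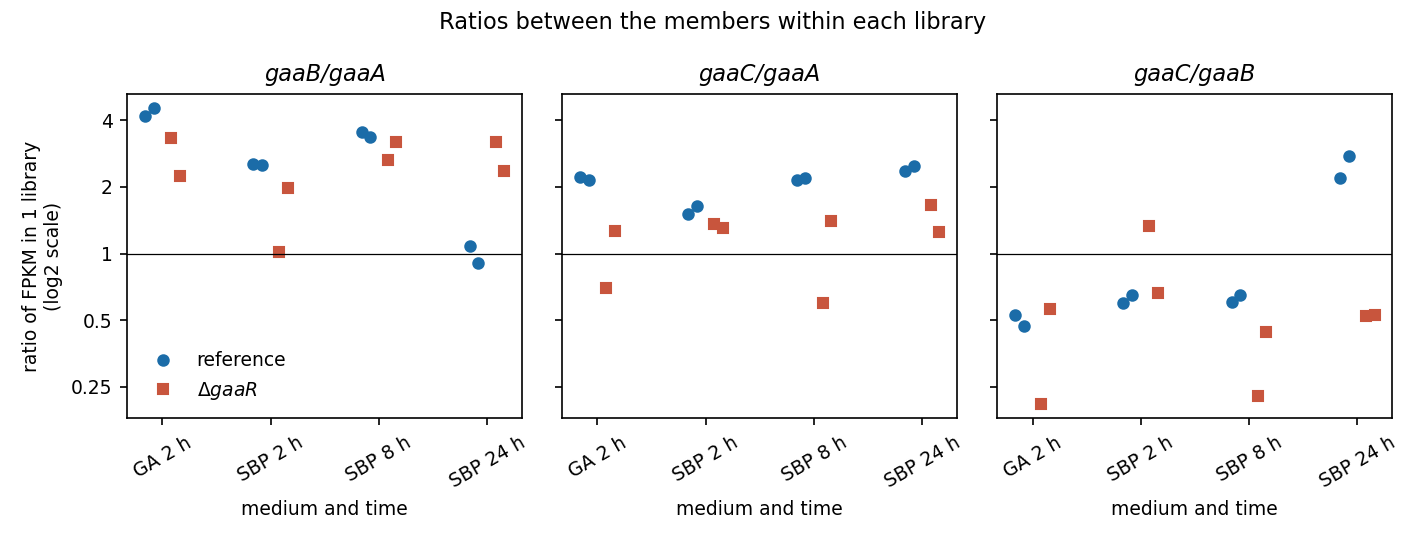
Ratio of FPKM values of 2 members in the same library, on a log2 axis, by medium and time (circles reference, squares ΔgaaR, 1 point per library). The gaaC to gaaA ratios of ΔgaaR lie below those of the reference in every condition, and gaaB to gaaA in the reference drops to 0.908 and 1.09 at 24 h.

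The other genes of the pathway were the transporter gene *gatA* and the L-glyceraldehyde reductase gene *gaaD*. In the ΔgaaR strain 2 of 2 were lower in each condition before 24 h, and only *gatA* was at 24 h. The ΔgaaR mean of *gatA* was 1.48% to 3.13% of the reference mean in the 4 conditions. *gaaD* kept more, with 6.25% on GA, 33.4% on SBP at 2 h, 18.9% at 8 h and 65.8% at 24 h, whereas *gaaA*, *gaaB* and *gaaC* lay between 0.971% and 4.52% in the first 3 of these conditions. No test of this difference between genes was run. At 24 h the *gaaD* libraries overlapped between strains (396 and 847 against 404 and 414 FPKM), and those of *gaaA*, *gaaB* and *gaaC* did not. *gaaX* was lower in the ΔgaaR strain in all 4 conditions, with log2 fold changes of -4.36, -5.43, -4.95 and -3.62 in the order above (adjusted p from 2.7e-09 to 2.4e-08). Of 16 pectin-degrading enzymes with a known tag, 12 were called lower in each condition before 24 h and 10 at 24 h. The shares of all genes called lower were 23.5%, 7.21%, 21.4% and 15.8% in the same order of conditions. This list was chosen with earlier results of these data known, so its shared direction is not independent evidence. Those called higher numbered 1 for GA, 0 for SBP at 2 h, 2 for 8 h and 0 for 24 h, against 26.2%, 7.35%, 22.4% and 12.6% of all genes. The list had median log2 fold changes from -3.20 to -2.01. The medians of *gaaA*, *gaaB* and *gaaC* ran from -6.33 to -3.35 and those of all genes tested from -0.02 to 0.09.

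Likeness of pattern was measured as the root mean square difference between profiles of log2(mean FPKM + 1) over the 8 groups, each centred on its own mean, among 10002 other genes. *gaaA* and *gaaC* were nearest to each other (0.50). The second nearest gene was *gatA* for all 3 members, at 0.62 from *gaaA*, 0.51 from *gaaC* and 0.83 from *gaaB*. *gaaB* was nearest to *gaaA* (0.63) and differed more from *gaaC* (0.87), which was rank 4 behind an unnamed gene (0.86). Of the 10 nearest genes, 4 for *gaaA*, 5 for *gaaB* and 4 for *gaaC* had no name here. The exopolygalacturonase gene *pgaX*, whose enzyme releases GA from chain ends, was among the 10 nearest of each member, at 0.74 from *gaaA*, 1.04 from *gaaB* and 0.62 from *gaaC*, and so was *pgxC* at 1.00, 1.12 and 1.18. *gaaX* was among the 10 nearest of *gaaA* (0.77) and *gaaC* (0.83) and was rank 11 for *gaaB* (1.31). *gaaD*, which acts next in the pathway, ranked 37 for *gaaA*, 43 for *gaaB* and 58 for *gaaC*. *gaaR* itself ranked 24, 92 and 15. The profiles of the 3 members spanned 7.54, 7.46 and 7.69 on the log2 scale, and those of their 10 nearest genes between 5.67 and 10.4.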

How the data were processed

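There was 1 deposited table per library with, per the file headers, gene length, expected count and FPKM. RSEM, Bowtie2 and BWA are listed in the submitters' processing notes, with neither role nor version. Expected counts came from the authors as not normalized, and 548 of 168277 listed values were not whole. FPKM, which scales by gene length and library total, was likewise taken as deposited. All lengths were multiples of 3, so they are coding lengths. The files list 10245 to 10857 genes per library; an unlisted gene was taken as 0 reads.

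After rounding, expected counts went into edgeR 4.0.16 (R 4.3.3) with TMM scaling, its filterByExpr filter and the quasi-likelihood test, with all 16 libraries in 1 fit of 8 group means (8 residual degrees of freedom). Adjusted p-values of genes are from this fit unless another tool is named, with calls at 0.05. DESeq2 1.42.0, limma 3.58.1 on log2(FPKM + 1), other scalings, no filter, a replicate term and omission of single libraries were tried. Ratios between members used log2(FPKM + 1) and an exact permutation test in Python 3.11.15. Standard errors (SE) and intervals are on the log2 scale.

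The members, lists and tests were chosen with earlier results of these data known. Gene names were paired with tags from published knowledge, not from a table. The genes named are the members, the other GA genes and regulators, and named genes among the 10 nearest in pattern. Strandedness of the counting is not given in the sources used here. No sequences are printed.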

Additional observations from a re-analysis of the deposited data

Results flagged for a closer look

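The effect of the *gaaR* deletion differed between conditions for the members, by edgeR's interaction test with Benjamini-Hochberg adjustment over 10003 genes. From 8 to 24 h on SBP it shrank by 3.52 for *gaaB*, by 2.14 for *gaaC* and by 1.79 for *gaaA* on the log2 scale. Over this time the reference levels fell by more than the ΔgaaR levels, in log2 -5.60 against -2.08 for *gaaB*, -3.59 against -1.46 for *gaaC* and -3.77 against -1.98 for *gaaA*. Between GA and SBP at 2 h the effect was larger on SBP for *gaaA* (-1.49) and *gaaB* (-1.56). The *gaaB* call was lost without 6 of the 8 libraries involved (values from -2.47 to -0.93). Its reference step was 0.00, and its ΔgaaR replicates differed by 2.57 times on GA and 3.35 times on SBP. In *gaaA* the reference level was higher on SBP than on GA and both ΔgaaR means were low (70.2 against 118 FPKM). Over all genes, replicate counts differed most in ΔgaaR on GA, ΔgaaR on SBP at 2 h and the reference strain at 24 h. Their chi-square per degree of freedom was 29.7, 32.0 and 35.7, against 5.75 to 9.89 in the other 5 groups. The part of this spread in the interactions was not tested.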

How the results depend on the processing

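The 12 decreases of *gaaA*, *gaaB* and *gaaC* in ΔgaaR were called in the same direction under all 7 other settings and in all 48 results with 1 library left out. The 3 decreases from 8 to 24 h in the reference strain and the 3 interactions over that time were called in all of them too. Total count scaling moved the median of all genes by 0.198 for the deletion at 24 h, by 0.279 from 8 to 24 h in ΔgaaR and by 0.206 for the interaction over that time.

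With only the compared libraries fitted, 736 genes were called on SBP at 2 h in place of 1456 and 1413 from GA to SBP in ΔgaaR in place of 3103. There *gaaC* from 2 to 8 h in the reference strain passed (-0.38), and *gaaB* from GA to SBP in ΔgaaR (-1.59) and its interaction (-1.54) did not. With limma the *gaaB* interaction was -1.73 and *gaaA* from 2 to 8 h in the reference strain -0.74 (-0.73 with total count scaling), neither called. DESeq2 called *gaaA* from GA to SBP (-0.73) and *gaaB* from 2 to 8 h in ΔgaaR (1.03), and the interactions from 2 to 8 h of *gaaA* (1.04) and *gaaB* (1.46).

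Left-out libraries gave 572 to 1803 calls for the deletion on SBP at 2 h, 1722 to 2405 at 24 h (main count 2847), and in ΔgaaR 1940 to 2999 from 2 to 8 h (3030) and 1714 to 2064 from 8 to 24 h (2902). The count on SBP at 2 h was 592 and 572 without reference replicates 1 and 2 and 634 without ΔgaaR replicate 1. ΔgaaR replicate 1 of 24 h gave the 1722, replicate 2 of 8 h the 1940 and, from 8 to 24 h, 1835, and replicate 2 of 24 h the 1714, each when left out. Values then ranged from 0.73 to 0.85 for *gaaA* from GA to SBP and from -0.96 to -0.77 from 2 to 8 h in the reference strain. In ΔgaaR, *gaaB* ranged from -2.47 to -0.93 from GA to SBP and from 0.41 to 1.87 from 2 to 8 h, and *gaaC* from -1.91 to -0.78 from 8 to 24 h. The *gaaB* interactions ranged from -2.47 to -0.93 (GA to SBP) and from 0.82 to 2.28 (2 to 8 h), and the deletion effect on the *gaaC* to *gaaB* ratio from -0.96 to -0.60. The cause was not tested.

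Within a condition, replicate numbers did not pair reference with ΔgaaR libraries. Deviations of same-numbered libraries of the strains correlated at 0.08, 0.02, 0.05 and -0.11 across genes in the 4 conditions. Pairing between times within a strain was not tested. A replicate block changed no call of the 3 genes, with *gaaB* at 24 h at -1.85.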

Other observations

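Of the 5 tags on each side of the *gaaC* and *gaaA* pair, 9 of 10 genes passed the filter on low counts, and of these 2 were called lower on GA, 1 on SBP at 2 h, 2 at 8 h and 2 at 24 h. On GA 4 of them were called higher, and 0 in the other conditions. Over all genes, 23.5%, 7.21%, 21.4% and 15.8% were called lower and 26.2%, 7.35%, 22.4% and 12.6% higher. NRRL3_05648, the tag next to *gaaC*, was singled out after its values were seen. It had few reads, 8 to 23 in each reference library and 0 to 2 in each ΔgaaR library. It passed the filter through reference libraries only. Its edgeR log2 fold changes were -4.17 on GA, -3.76 on SBP at 2 h, -3.96 at 8 h and -2.33 at 24 h. NRRL3_05651, the tag next to *gaaA*, also singled out after its values were seen, had 140 and 160 reads in the reference strain on GA and 19 and 20 in ΔgaaR (-3.16, adjusted p = 1.3e-07). On SBP it did not pass, with values of -0.37 at 2 h, -0.07 at 8 h and -0.09 at 24 h (adjusted p from 0.36 to 0.84). Both tags were picked by their values, so their edgeR results are not independent evidence. Whether reads of *gaaC* or *gaaA* were counted for a neighbour was not tested. Around *gaaB*, 9 of 10 genes passed the filter, and 3 were called lower on GA, 3 on SBP at 2 h, 5 at 8 h and 0 at 24 h, while 1, 2, 1 and 1 were called higher. The values around *gaaB* ran from -2.15 to 2.42.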
